A study of Camelus dromedarius with 10 samples.

Results

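Interferon regulatory factors (IRFs) are transcription factors that bind the regulatory DNA of interferons and of the genes that interferons switch on. IRF3 and IRF7 are activated by kinases downstream of sensors of foreign nucleic acids and then drive interferon genes, while IRF9 is the DNA-binding part of the complex that carries the interferon signal to the nucleus. IRF1 activates and IRF2 mainly opposes transcription at shared sites, IRF5 acts downstream of Toll-like receptors, and IRF4 and IRF8 shape lymphoid and myeloid cells, with IRF8 required for normal microglia in the brain. B2M (beta-2 microglobulin) is the invariant light chain of MHC class I and is itself raised by interferons in many cells.

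The supraoptic nucleus (SON) of the hypothalamus holds the magnocellular neurones that make vasopressin and oxytocin. RNA was taken from the rostral SON of male dromedary camels aged 4 to 5 years, of which 5 had free access to water (control) and 5 went without water for 20 days (water deprivation, WD), and each animal gave 1 library. The 8 IRF genes IRF1, IRF2, IRF3, IRF4, IRF5, IRF7, IRF8 and IRF9 together with B2M were selected by the symbols that the paper's supplementary tables pair with Ensembl gene IDs, first by the camel name and otherwise by the name of the human ortholog. These 9 genes correspond to 10 of the 22444 gene IDs in the count table, because 2 IDs (ENSCDRG00005008201 and ENSCDRG00005018765) carry the human name IRF7. B2M (ENSCDRG00005009849) was paired with a symbol only by a shortened table ordered by the p-value of the same comparison, so its inclusion was not independent of its difference between the groups. The tissue is bulk, so more cells of a type and more RNA per cell cannot be told apart.

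Values are levels in CPM (read pairs of a gene per 1e+06 read pairs of the library, after TMM normalization), and 1 read pair was worth between 0.0864 and 0.237 CPM in 8 libraries, 0.475 CPM in WD library 6 (WD6) and 1.20 CPM in control library 13 (CON13). Between 1665098 and 8126641 read pairs were counted per library, of which 5 dominant gene IDs took 27.7% to 76.1%, leaving 397495 in CON13 and 1106575 to 5872137 in the other libraries. CON13 and WD library 15 (WD15) were also made from shorter fragments than the other 8. Among transcription factors of hypothalamic neurones, SIM1 averaged 71.0 CPM in control and 68.8 CPM in WD camels, ARNT2 averaged 366 and 359 CPM, and OTP averaged 39.5 and 25.7 CPM (log2 fold change -0.58, adjusted p = 0.454 by edgeR). PDYN, the precursor of the dynorphin opioid peptides made by these neurones, averaged 162 and 618 CPM (log2 fold change 1.93, adjusted p = 0.000302 by edgeR). The IDs of vasopressin and oxytocin were not used here.

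Among the 8 member IDs that passed the filter on low counts, IRF8 and B2M had the largest differences. Each was higher on average in WD camels by close to a doubling, but neither passed an adjusted p of 0.05 by edgeR's quasi-likelihood test. None of the 8 was a differentially expressed gene (DEG) at this threshold, where the background was 0.499% of the 14432 genes tested (72 genes). DESeq2's Wald test called 1 member, B2M, and 0 of the IRF IDs, against a background of 1.27%. At an unadjusted p under 0.05 by edgeR, 2 members (IRF8 and B2M) were higher and 0 were lower in WD camels, where 9.31% of all genes passed it, 4.91% higher and 4.41% lower. B2M owes its symbol to a table ordered by the study's own DESeq2 p-value for this comparison, so neither its call nor its place in these counts is independent. Without B2M the edgeR count is 1 of 7 IDs (IRF8). The 2 IDs that did not pass the filter were IRF4 and the second IRF7 ID.

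The study measured IRF8 by qRT-PCR as well, with the primer pair below. The paper states that primers for genes with several transcript variants were placed on sequence shared by all of them. Those qRT-PCR measurements were not analysed here.
IRF8 forward primer: gtggaggaagcagggaagag
IRF8 reverse primer: aaaggtctctggtgtgaggc

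IRF8 (ENSCDRG00005010228), the factor of the myeloid lineage, stood at 38.4 CPM in CON2, 25.1 in CON3, 28.6 in CON4, 27.8 in CON5 and 16.7 in CON13. In WD camels it stood at 35.6 CPM in WD6, 33.4 in WD7, 56.7 in WD8, 40.1 in WD9 and 112.7 in WD15. All 5 WD libraries lay above the control mean and 3 of them above the highest control, yet the groups overlapped because CON2 exceeded WD6 and WD7. The means were 27.3 ± 7.78 CPM in control and 55.7 ± 33.2 CPM in WD camels (SD, n = 5 each). The log2 fold change was 0.98 (SE 0.303, 95% interval 0.35 to 1.62), with an adjusted p of 0.229 by edgeR and 0.115 by DESeq2. By DESeq2 it passed the threshold in 2 of the 10 fits that each left out 1 library, those without WD6 (adjusted p = 0.0340) and without WD7 (adjusted p = 0.0479). Over all genes DESeq2 called 383 without WD6 and 201 without WD7, where it called 209 with all 10 libraries. A log2 fold change at least as large as that of IRF8 was found for 0.963% of all genes tested by edgeR.

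The level of IRF8 rested on few read pairs in CON13 (14) and on many in WD15 (541), and these are the lowest and the highest library. Without WD15 the WD mean was 41.4 ± 10.5 CPM (SD, n = 4) and the log2 fold change 0.57, with an adjusted p of 0.686 by edgeR. Without both WD15 and CON13 it was 0.47 (unadjusted p = 0.0501, adjusted p = 0.878, edgeR). With the RNA integrity number (RIN) as a covariate it was 0.62 (adjusted p = 0.386, edgeR). In each of these fits the direction was the same and the difference smaller. Among the 5 shallower libraries (CON2, CON3, CON13, WD6 and WD15, by counts outside the dominant IDs), the log2 difference between WD (n = 2) and control (n = 3) was 1.32, and among the other 5 it was 0.59 (n = 3 against n = 2).

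B2M, the light chain of MHC class I, was measured on 267 to 8239 read pairs a library. Its level was 566 CPM in CON2, 540 in CON3, 647 in CON4, 635 in CON5 and 319 in CON13. In WD camels it was 902 CPM in WD6, 716 in WD7, 1266 in WD8, 633 in WD9 and 1625 in WD15. Of the 5 WD libraries, 4 exceeded every control, while WD9 fell between the controls, so the groups overlapped. Means were 541 ± 132 CPM in control and 1028 ± 413 CPM in WD camels (SD, n = 5 each). The log2 fold change was 0.92 (SE 0.259, 95% interval 0.38 to 1.47), with an adjusted p of 0.184 by edgeR and 0.0403 by DESeq2, and 1.26% of all genes had one at least as large. As for IRF8, the lowest library was CON13 and the highest WD15. The log2 fold change of B2M was 0.70 without WD15 (adjusted p = 0.501, edgeR), 0.55 without WD15 and CON13 (adjusted p = 0.730, edgeR) and 0.65 with RIN as a covariate (adjusted p = 0.338, edgeR). By DESeq2, B2M passed the threshold in 4 of the 10 fits that each left out 1 library and not in the 6 without WD8, WD15, CON2, CON3, CON5 or CON13, where the adjusted p reached 0.217 (without WD15). Within the shallower libraries the log2 difference was 1.39, and within the deeper ones 0.37.

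**Figure D1:**
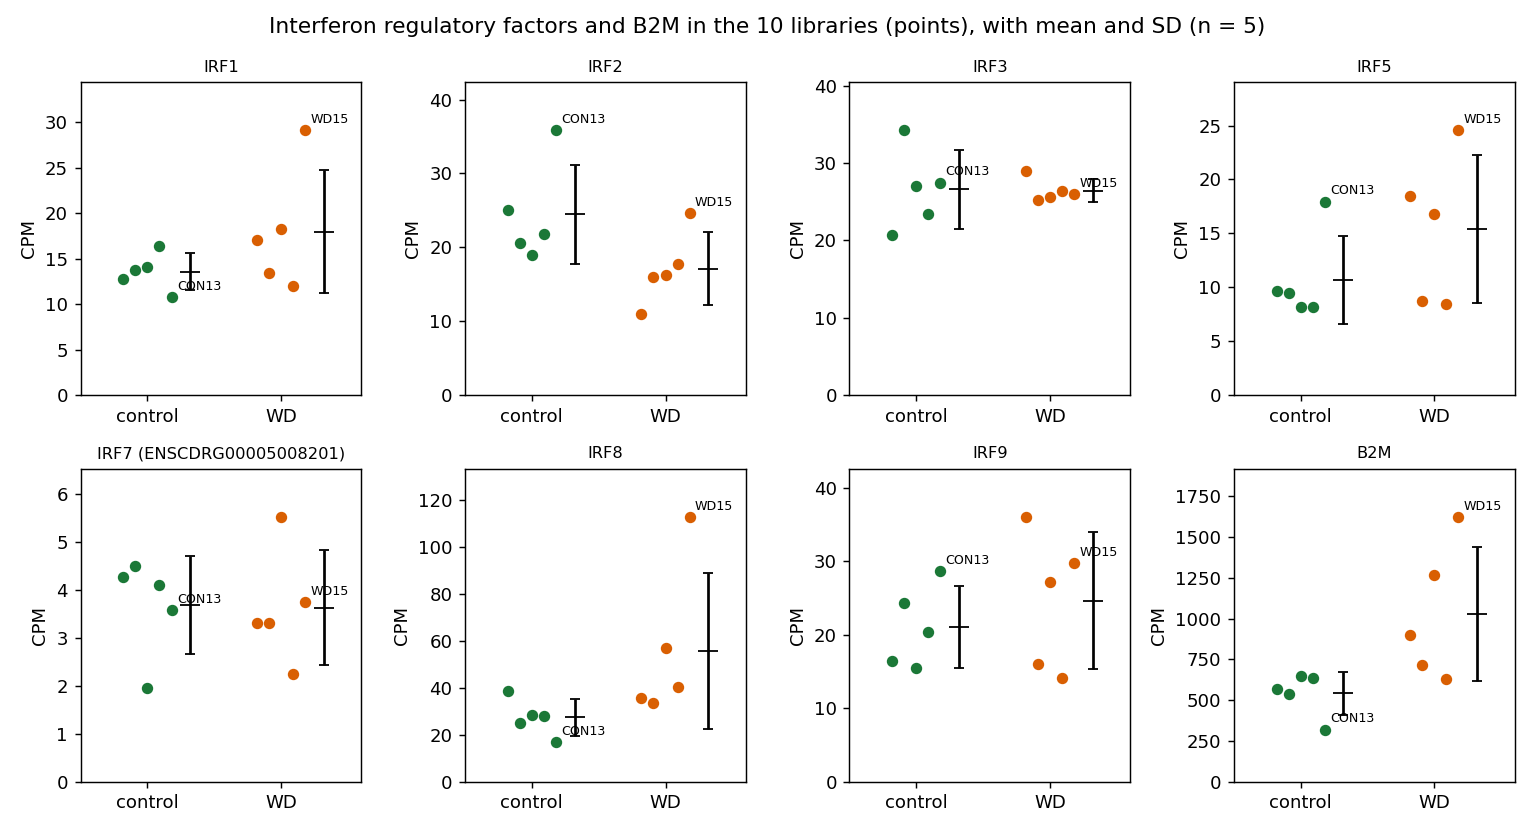
Level in CPM (linear axis from 0) of the 7 IRF IDs that passed the filter and of B2M, with 1 point per library, control in green and WD in orange, and the mean with SD (n = 5) beside each group. CON13 and WD15 are labelled: WD15 is the highest library for IRF1, IRF5, IRF8 and B2M, and CON13 the lowest for IRF1, IRF8 and B2M.

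IRF5 (ENSCDRG00005009623), which acts downstream of Toll-like receptors in myeloid cells, split the WD camels. It stood at 18.5 CPM in WD6, 16.7 in WD8 and 24.6 in WD15, but at 8.67 in WD7 and 8.47 in WD9. In control camels it was 9.61 CPM in CON2, 9.46 in CON3, 8.15 in CON4, 8.20 in CON5 and 17.9 in CON13. So 3 WD libraries and CON13 were high, and the other libraries lay close together. The log2 fold change was 0.62 (SE 0.319, 95% interval -0.05 to 1.30, adjusted p = 0.585 by edgeR), and it was 0.38 without WD15 and 0.24 with RIN as a covariate.

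IRF1 and IRF2, the activator and the opposing factor at shared sites, had differences of opposite sign, neither past the threshold. IRF1 (ENSCDRG00005003873) was at 12.8, 13.7, 14.1, 16.4 and 10.8 CPM in CON2, CON3, CON4, CON5 and CON13, and at 17.1, 13.4, 18.3, 12.01 and 29.2 CPM in WD6, WD7, WD8, WD9 and WD15. The 3 WD libraries above the highest control were WD6, WD8 and WD15, and its log2 fold change was 0.36 (SE 0.248, adjusted p = 0.708 by edgeR), or 0.12 without WD15. IRF2 (ENSCDRG00005015715) was at 25.0, 20.6, 18.9, 21.8 and 35.9 CPM in the control libraries in the same order, and at 10.9, 15.9, 16.3, 17.7 and 24.6 CPM in the WD libraries. All WD libraries except WD15 lay below the lowest control. Its log2 fold change was -0.44 (SE 0.231, 95% interval -0.93 to 0.05, adjusted p = 0.599 by edgeR), and it was -0.59 without WD15 (adjusted p = 0.634, edgeR). With all 10 libraries its unadjusted p by edgeR was 0.0739. That p was under 0.05 without WD15, without CON4, without both WD15 and CON13, and with RIN or short fragments as a covariate.

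The ratio of IRF1 to IRF2 read pairs within a library does not depend on the scaling between libraries. It ranged from 0.311 in CON13 to 0.753 in CON5 among control camels, and from 0.679 in WD9 to 1.55 in WD6 among WD camels. The WD libraries were on the whole higher, but WD9 lay below CON4 and CON5. The mean log2 ratio was -0.81 ± 0.535 in control and 0.05 ± 0.462 in WD camels (SD, n = 5), a difference of 0.86 with a two-sided exact permutation p of 0.0238, where the smallest p possible was 0.00794. Adjusted over the 4 ratios tested, this was an exact permutation p of 0.0952. Without CON13 and WD15 the difference was 0.59.

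The factors that link nucleic acid sensing to interferon genes had log2 fold changes close to 0. IRF3 (ENSCDRG00005008089) lay between 20.7 and 34.3 CPM in control camels and between 25.3 and 28.9 CPM in WD camels. Its log2 fold change was -0.01 (SE 0.182, 95% interval -0.39 to 0.38, adjusted p = 0.995 by edgeR), with a sign that changed between settings. The first IRF7 ID (ENSCDRG00005008201) lay between 1.95 and 4.49 CPM in control and between 2.25 and 5.53 CPM in WD camels, on 3 to 36 read pairs a library. Its log2 fold change was -0.01, and the 95% interval of -0.88 to 0.86 leaves differences close to a doubling within it. In the RefSeq annotation of another dromedary assembly (mCamDro1.pat) IRF7 overlaps PHRF1 and IRF2 overlaps a long non-coding RNA and a tRNA, and the treatment of read pairs shared by overlapping genes is not given in the sources used here.

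IRF9 (ENSCDRG00005016598), the DNA-binding part of the type I interferon response complex, ranged from 15.5 to 28.7 CPM in control and from 14.2 to 36.1 CPM in WD camels. The highest library was WD6 and the lowest WD9, both from WD camels. Its log2 fold change was 0.25 (SE 0.267, 95% interval -0.31 to 0.81, adjusted p = 0.841 by edgeR), and it was 0.094 without WD6, 0.16 without WD15 and 0.0053 with RIN as a covariate.

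IRF4 (ENSCDRG00005013862), a factor of lymphocytes, was close to the limit of detection, with 19 read pairs in all. It had 6 read pairs in CON2, 4 in CON3, 2 in CON13, 6 in WD8 and 1 in WD7, and 0 in the other 5 libraries. The second IRF7 ID also had 19 read pairs, with 7 in CON3, 6 in WD8 and 0 in 4 libraries. A count of 0 allows a level of up to 3 read pairs, which is 0.259 CPM in WD9 and 3.59 CPM in CON13 and covers counting error only, so no fold change is given for these IDs.

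**Figure D2:**
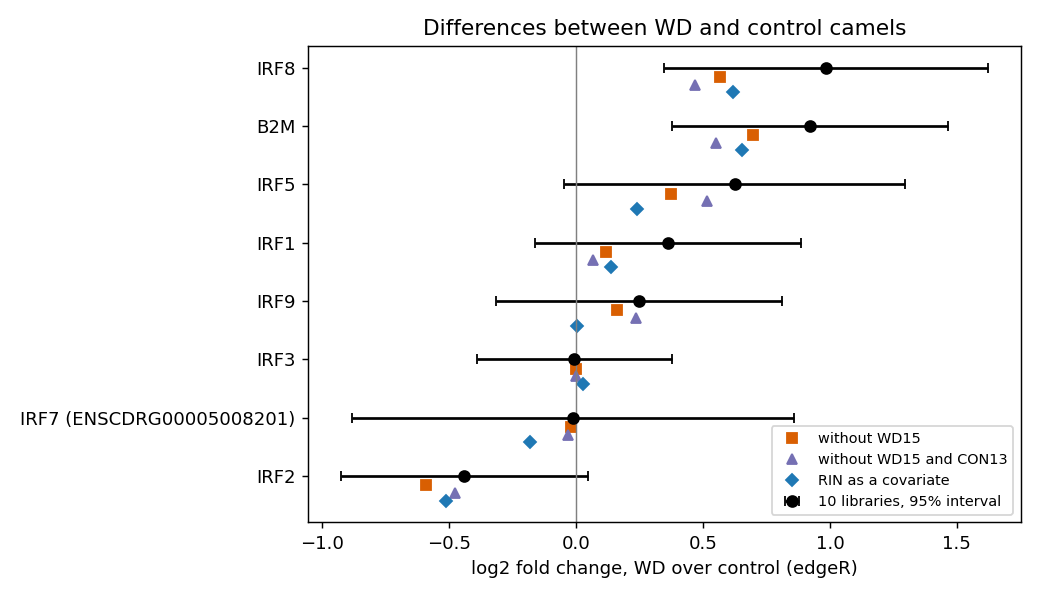
Log2 fold change of WD over control (edgeR) for the 8 IDs tested, as black points with 95% intervals, and the same value without WD15 (squares), without WD15 and CON13 (triangles) and with RIN as a covariate (diamonds). Only the intervals of IRF8 (0.35 to 1.62) and B2M (0.38 to 1.47) lie wholly above 0, and their 3 other values are all smaller.

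Of the 7 IRF IDs tested, 4 had a log2 fold change above 0, where 51.9% of all genes did, and their median was 0.25 against 0.02 for all genes. B2M was left out of these values because of the way it was paired. The median of the IRF IDs ranged from 0.094 (without WD6) to 0.40 (without WD9) when 1 library was left out, and was 0.12 without WD15, 0.066 without both WD15 and CON13 and 0.027 with RIN as a covariate. No member had groups without overlap, which 2.62% of all genes had (1.34% with WD above). Among the 7 IRF IDs, WD15 was the highest of the 10 libraries for IRF1, IRF5 and IRF8, and it was so for 11.5% of all genes tested. CON13 was the lowest for IRF1 and IRF8, and for 23.3% of all genes. Both libraries held the same place for B2M, which was again left aside because of the way it was paired.

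Microglial and macrophage markers were followed beside IRF8, IRF5 and B2M, since IRF8 and IRF5 are genes of these cells in the brain. Of 12 markers, none passed the threshold by edgeR and 7 were higher at an unadjusted p under 0.05, where 4.91% of all genes were, and their median log2 fold change was 0.75. CTSS, a lysosomal protease, had the smallest p of the list (log2 fold change 1.01, adjusted p = 0.0857 by edgeR and 0.0200 by DESeq2). PTPRC, the CD45 antigen, had 0.90, ITGAM, an integrin subunit of myeloid cells, also 0.90, and CSF1R, the receptor that microglia need to survive, 0.62. The lower end was held by SALL1 at 0.32 and FGR at -0.33. The summed level of the 12 markers ranged from 335 to 516 CPM in control camels and from 396 to 1088 CPM in WD camels, and WD15 was the highest library for 11 of the 12. Without WD15 their median was 0.38, and 2 were at an unadjusted p under 0.05, a count that was 4 without WD8, CON3 or CON5. Without both WD15 and CON13 the median was again 0.38, with RIN as a covariate it was 0.29 with 3 such markers, and with depth group as a covariate PTPRC and CTSS passed the threshold (edgeR).

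The same genes were also set relative to the sum of these markers in each library. The log2 ratio of IRF8 to the markers was -3.84 ± 0.342 in control and -3.51 ± 0.278 in WD camels (SD, n = 5), a difference of 0.33 with an exact permutation p of 0.135 (0.270 adjusted over the 4 ratios). For B2M the difference was 0.30 (exact permutation p = 0.270, adjusted 0.360), and for IRF5 it was -0.11 (exact permutation p = 0.730, adjusted 0.730). All 3 ratios overlapped between the groups. Without CON13 the differences were 0.19 for IRF8, 0.14 for B2M and 0.11 for IRF5, and without both CON13 and WD15 they were 0.13, 0.18 and 0.14. In WD15, the library with the most marker counts, the ratio of IRF8 to the markers was 0.104, where the other WD libraries ranged from 0.0646 in WD6 to 0.101 in WD9. The part of a different number of microglia in the differences of IRF8, IRF5 and B2M was not tested.

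**Figure D3:**
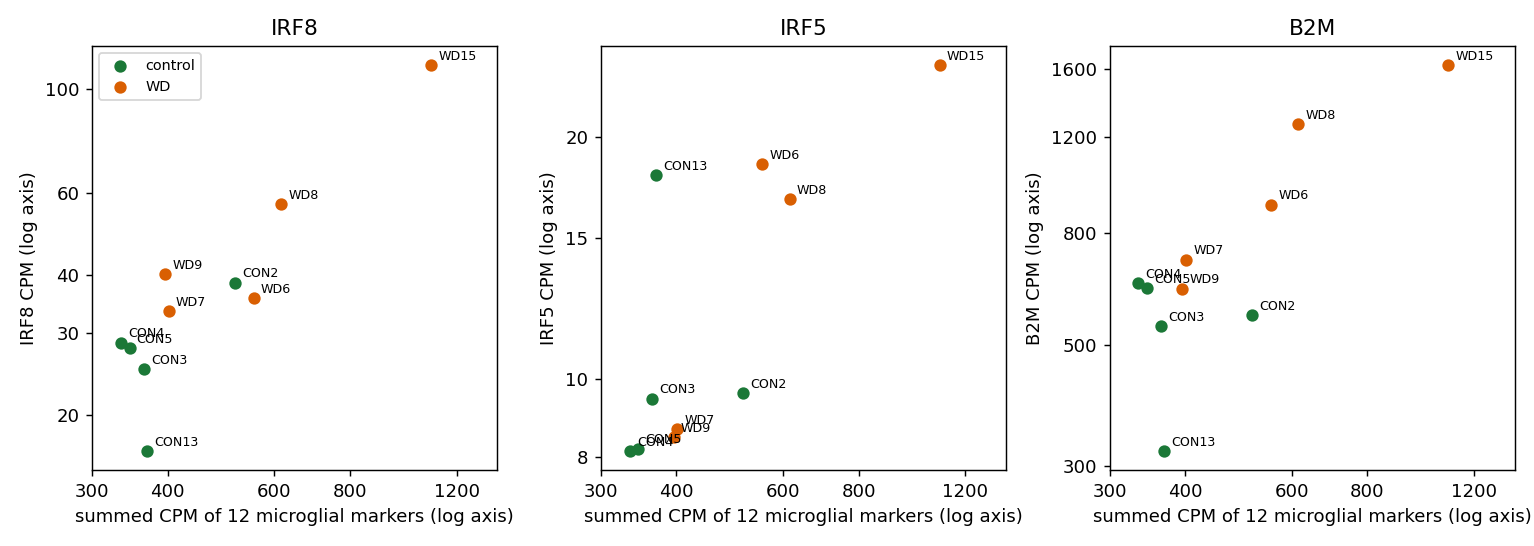
Level of IRF8, IRF5 and B2M (CPM, log axis) against the summed level of the 12 microglial markers (CPM, log axis), with 1 labelled point per library, control in green and WD in orange. WD15 is at the top right of each panel, with 1088 CPM of markers, 112.7 CPM of IRF8, 24.6 CPM of IRF5 and 1625 CPM of B2M, and CON13 has low IRF8 and B2M but high IRF5.

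Other markers of the myeloid lineage and of MHC class II were paired only by the shortened table and were therefore not counted. Among them C1QA, a chain of the complement initiator C1q, was higher in WD camels (log2 fold change 1.63, adjusted p = 0.0232 by edgeR). It did not pass the threshold without WD8 (adjusted p = 0.0672), CON3 (0.133), CON5 (0.0874) or CON13 (0.0756), nor without both WD15 and CON13 (0.0957) or with library totals only (0.287), all by edgeR. CX3CR1, a chemokine receptor of microglia, had 0.94 (adjusted p = 0.242), and HLA-DRA, an MHC class II chain, had 0.61 (adjusted p = 0.531), both by edgeR.

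Lymphocyte and blood cell markers had few counts and fold changes of the opposite sign. Of 18, only 6 passed the filter, all 6 with a log2 fold change below 0 (median -0.45). The fit without CON4 tested 8 of the 18, with a median of -0.98. Without both WD15 and CON13 the median was -0.26 with 2 of 7 above 0, with depth group as a covariate it was -0.24 with 1 of 6 above 0, and without CON13 it was -0.38 with 1 of 6 above 0. None of the 6 was at an unadjusted p under 0.05 by edgeR with all 10 libraries. With 1 library left out, 2 markers were lower at that p without CON4, and 1 without WD6, WD8, WD15 or CON5. By DESeq2, which has no such filter, 2 of the 18 were lower at that p, where 5.29% of all genes were lower. GATA3, a transcription factor of T cells among other tissues, had -1.40 and CD27, a receptor of lymphocytes, -0.60 on the log2 scale. IL7R, the receptor for interleukin 7, had -0.30, GZMB, a protease of cytotoxic cells, -0.22 and LCK, a kinase of T cells, -0.20. Their summed level was 17.9 to 112.4 CPM in control and 13.7 to 47.5 CPM in WD camels, with the highest in CON13, which also holds 2 of the read pairs of IRF4. Of 7 vessel markers, none passed the threshold. FLT1 (0.62) and KDR (0.64), receptors for vascular endothelial growth factor, were higher at an unadjusted p under 0.05 by edgeR, where 4.91% of all genes were. This count of 2 was 1 without WD15 and 0 without CON3, without both WD15 and CON13 or with library totals only. SOX17 had 0.72, ERG 0.19, TIE1 0.15 and TEK -0.06. WD15 was the highest library for 6 of these 7.

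Upstream of the IRFs, the sensors and kinases that activate them gave 0 DEGs among 14 tested of 15. At an unadjusted p under 0.05, 4 of the 14 were higher by edgeR, where 4.91% of all genes were, and 3 by DESeq2, where 3.54% of all genes were. The edgeR count was 2 without CON3, without CON5 or with library totals only, and otherwise 3 to 5 when 1 library was left out. These were TLR4, the receptor for bacterial lipopolysaccharide (log2 fold change 0.92, adjusted p = 0.229), RIPK1, a kinase of death receptor signalling (0.66, adjusted p = 0.349), IRAK4, the first kinase after most Toll-like receptors (0.81, adjusted p = 0.425), and TLR7, an RNA sensor (0.71, adjusted p = 0.531), all by edgeR. At the other end CGAS, the DNA sensor, had -0.02, the kinases IRAK1 and IKBKB had 0.09 and 0.13, and TBK1, the kinase that phosphorylates IRF3, had 0.31 (adjusted p = 0.773, edgeR). The median of the list was 0.39, or 0.26 without WD15 and 0.15 with RIN as a covariate. STING1, the adaptor between CGAS and TBK1, was paired only by the shortened table and had 0.84 (adjusted p = 0.240, edgeR).

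Interferon receptors, Janus kinases and STATs gave 0 DEGs among 14 tested of 16, and 12 of the 14 had a log2 fold change above 0, with a median of 0.19, or 0.11 without WD15. IFNGR1, a chain of the interferon gamma receptor, averaged 50.6 CPM in control and 92.2 CPM in WD camels and alone among them was at an unadjusted p under 0.05 (log2 fold change 0.82, adjusted p = 0.223 by edgeR), where 4.91% of all genes were higher. By edgeR the count was 3 without WD6, 2 without WD7 and 3 with depth group as a covariate, and DESeq2 had 1 higher and 1 lower. IFNAR1, a chain of the type I receptor, had 0.47 (adjusted p = 0.589, edgeR), and STAT6 had 0.46 (adjusted p = 0.678, edgeR). STAT2, a partner of IRF9, was close to 0, with 0.01, as were STAT5A and STAT5B, with -0.02 and -0.01.

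DNA-binding partners and co-regulators of the IRFs gave 0 DEGs among 11 tested of 13, with a median of 0.61. At an unadjusted p under 0.05 by edgeR, 4 of the 11 were higher, where 4.91% of all genes were. Among these were PRDM1 (0.75, adjusted p = 0.441), BCL6 (0.58, adjusted p = 0.486) and MEF2C (0.49, adjusted p = 0.492), all by edgeR. They are transcription factors of haematopoietic cells among other tissues. SPI1, the factor PU.1 that binds DNA together with IRF8 and IRF4, had 0.66 (adjusted p = 0.663, edgeR), and SPIB, its relative of lymphoid cells, had -0.86 (adjusted p = 0.726, edgeR). The largest p-values were those of ETV6 (-0.03), CEBPB (0.60) and CEBPA (0.61). WD15 was the highest library for 8 of the 11, and without it the median was 0.25 and none was at an unadjusted p under 0.05, as with RIN as a covariate, where the median was 0.21, and with library totals only, where it was 0.70. Of 5 NF-kB subunits, none was at an unadjusted p under 0.05 by edgeR or DESeq2, and their median was 0.22. It was 0.066 with RIN as a covariate, 0.075 without WD15, -0.015 without WD15 and CON13 and 0.38 without CON3. By edgeR, 1 subunit was higher at that p without CON3, and 1 with depth group as a covariate. NFKB2 had 0.46, REL 0.39, RELA 0.22, RELB 0.09 and NFKB1 -0.0039.

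Downstream, the interferon-induced genes had fold changes on both sides of 0. Of 8, only 5 passed the filter, none was at an unadjusted p under 0.05 by edgeR or DESeq2, and the median log2 fold change was 0.11. It was 0.0082 without WD15 and turned below 0 without WD8 (-0.096), CON2 (-0.027), CON4 (-0.11) or CON5 (-0.010), and with RIN as a covariate (-0.069). By DESeq2 it was -0.055 and without a filter -0.020, which both cover all 8 genes. The median of all genes was also below 0 there, at -0.050 by DESeq2 and -0.030 without a filter. EIF2AK2, the kinase PKR, had 0.14, and TRIM21, a cytosolic antibody receptor, had -0.45. The nuclear body proteins SP140, SP110 and SP100 had 0.13, 0.11 and -0.05. CXCL10 and CXCL9, chemokines that interferon gamma raises strongly, had 35 and 68 read pairs over all libraries and were not tested. Among 6 other genes of class I presentation, none was at an unadjusted p under 0.05 by edgeR or DESeq2. NLRC5, the class I transactivator, had 0.04, and the immunoproteasome subunits PSMB8 and PSMB9 had -0.14 and -0.63. The peptide-trimming enzymes ERAP1 and ERAP2 had 0.18 and -0.23, and RFX5, a factor at MHC promoters, had 0.22. The median of the list was -0.05, and leaving out 1 library moved it between -0.25 (without WD15) and 0.11 (without CON13), while it was -0.36 with RIN as a covariate and 0.092 with library totals only. CALR (0.59) and PDIA3 (0.48), chaperones of the endoplasmic reticulum that also load class I, were paired only by the shortened table and had adjusted p-values of 0.282 and 0.510 by edgeR.

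**Figure D4:**
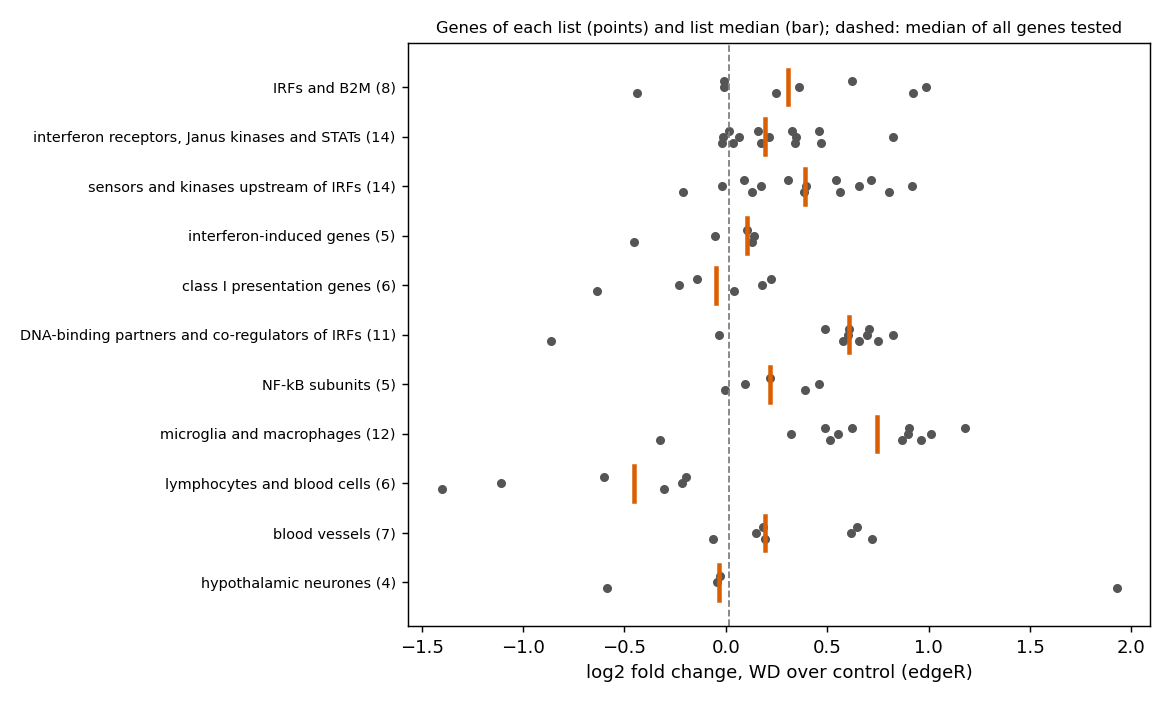
Log2 fold change of WD over control (edgeR) for each tested gene of the IRFs and B2M and of the 10 gene lists, as grey points, with the list median as an orange bar, the number of genes tested in brackets and the median of all genes (0.02) as a dashed line. The medians run from -0.45 for lymphocyte and blood cell markers to 0.75 for microglial markers, and PDYN at 1.93 is the only gene shown that passed the threshold.

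Likeness was ranked only among tested IDs paired with a symbol by the paper's complete table of functional gene classes. Genes paired only by the shortened table, such as C1QA, were not ranked. Among 2329 other such IDs, the genes whose levels over the 10 libraries were most like that of IRF8 were PRKCB (Pearson r of log2 CPM 0.967), CAMK1 (0.950), BMP2K (0.946), PRKD3 (0.946) and ALOX5AP (0.940). They are 4 protein kinases and the protein that activates 5-lipoxygenase in myeloid cells. The same 5 genes led after the mean of each group had been taken away, with r from 0.894 to 0.946. For B2M they were ALOX5AP (0.934), TCF7 (0.929), IFNGR1 (0.923), IRF8 (0.919) and ELF1 (0.914) over the 10 libraries. After the group means were taken away, IRF1 was the nearest to B2M (0.917), and JUNB, PDE3B and ECE1 were also among the nearest. These values describe the same 10 libraries, which differ in depth, and WD15 is the highest of them for IRF8 and B2M.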

How the data were processed

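Stranded libraries were made from ribosome-depleted bulk RNA of the SON (5 control camels, 5 WD camels). The authors aligned trimmed reads to the assembly Camdro2 with STAR and deposited counts per gene from FeatureCounts, without normalization and without pooling. Their normalized table was not used. The annotation release and the strand setting of the counting are not given in the sources used here.

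Groups came from the labels. The comparison of WD with control used the quasi-likelihood F test of edgeR 4.0.16 (R 4.3.3) with TMM factors, a robust fit and filterByExpr. P-values were adjusted by Benjamini and Hochberg's method for 14432 genes, and 0.05 was the limit for a call. A standard error is the size of the log2 fold change over the root of its F value. DESeq2 1.42.0 (Wald test) was an alternative. Log2 CPM used a prior count of 0.5, and ratios a pseudocount of 0.5 read pairs and exact permutation over 252 assignments (numpy 2.4.6, scipy 1.17.1). Likeness was ranked among tested IDs paired with a symbol by the complete table, and no group of them was tested. The edgeR fit was checked on simulated data.

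No pair of libraries within a group agreed within sampling noise (smallest chi-square over its degrees of freedom, 8.62). Depth outside 5 dominant IDs was lowest in CON13 and WD6, where genes with few counts are least precise. RIN and fragment length came from the paper's supplementary data and served as covariates or to leave libraries out.

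The members and gene lists were chosen with earlier results of these data known. All members are named, with the genes of a list that passed the threshold or otherwise those with the 3 smallest or 3 largest p-values (except a few not reported here), and the 5 genes most like IRF8 and B2M. Other list genes were named after their values were seen, for their role. List counts use only genes paired by the complete table, and no set test was run. No genome or annotation of Camdro2 was used here, so no coordinates are given.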

Additional observations from a re-analysis of the deposited data

Results flagged for a closer look

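Among 24 groups of 5 libraries checked for a single library far from the others (Dixon's criterion, which chance meets in about 1 group in 20), 3 met it. IRF5 in CON13 was at 4.17 log2 CPM, where the other controls lay between 3.04 and 3.28. B2M in CON13 was at 8.32 log2 CPM, below the other controls at 9.08 to 9.34. The first IRF7 ID (ENSCDRG00005008201) in CON4 was at 1.03 log2 CPM, below the other controls at 1.88 to 2.20, on 17 read pairs. CON13 has the fewest counts of all libraries and short fragments, and its IRF5 rests on 15 read pairs and its B2M on 267. Without both CON13 and WD15 the log2 fold changes were 0.52 for IRF5 and 0.55 for B2M.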

How the results depend on the processing

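Of 473 alternative values, 442 were the same by the rule used. For a fold change or ratio this meant the same direction and side of the threshold. For a count of called genes it meant an equal or close number. Many of the 442 were such counts, most of them 0 in each setting. DESeq2's Wald test called 1 member, B2M (log2 fold change 0.92), and 1 microglial marker, and depth group as a covariate called 2 microglial markers. Values near 0 changed sign. IRF3 was at 0.12 with library totals only, 0.0095 without a filter, 0.0038 with at least 10 counts in every library, 0.027 with RIN and 0.013 with depth group as covariates. The first IRF7 ID was at 0.12, 0.0074 and 0.047 with library totals only, no filter and depth group. Leaving out each library in turn gave -0.11 to 0.091 for IRF3, -0.25 to 0.13 for IRF7 and -0.24 to 0.11 for the log2 ratio of IRF5 to microglial markers, which was 0.14 without CON13 and WD15. The causes were not tested. By DESeq2, leaving out each library in turn gave 0.69 to 1.06 for B2M and 0.57 to 1.15 for IRF8, and without both CON13 and WD15 B2M was at 0.54 (adjusted p = 0.433). The fits without CON13 and WD15, and DESeq2's without a library, were chosen after the data were seen.

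Leaving out each library in turn gave no called member by edgeR, with log2 fold changes of 0.57 to 1.12 for IRF8, 0.70 to 1.05 for B2M, 0.38 to 0.79 for IRF5, 0.12 to 0.48 for IRF1, 0.094 to 0.40 for IRF9 and -0.59 to -0.32 for IRF2, 0.64 to 1.01 for the ratio of IRF1 to IRF2, and 0.19 to 0.44 and 0.14 to 0.43 for those of IRF8 and B2M to microglial markers. The lowest values of IRF8, B2M, IRF5 and IRF1 were those without WD15. With depth group as a covariate the adjusted p was 0.0622 for B2M and 0.0883 for IRF8 (edgeR). Over all genes, calls numbered 72 as reported, 209 by DESeq2, 10 with library totals only, 224 with depth group as a covariate, 33 without CON13 and WD15 and 40 to 102 without 1 library. By DESeq2, calls without 1 library ran from 112 (without CON3) to 383 (without WD6). Library totals only moved the median log2 fold change of all genes from 0.02 to 0.16. With at least 10 counts in every library, IRF1 and IRF7 were not tested. No paired analysis was possible because control and WD libraries share no replicate number. Depth limits IRF4, IRF7 and any gene with few counts in CON13.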
